A study of Mus musculus with 59 samples.

Results

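The 10 genes described here encode chaperones that the heat shock transcription factor HSF1 controls: Hspa1a, Hspa1b, Hsph1, Hspa8, Hsp90aa1, Dnajb1, Hspb1, Hspa4l, Chordc1 and Hspe1. Their rows were found by symbol, a rule that uses no measured value, and each of the 10 was found as 1 gene among the 18088 in the table. They were measured by RNA sequencing in the prefrontal cortex of C57BL/6J mice aged 25 days. Mice heterozygous for Ash1l (HT), a gene for a histone methyltransferase, or wild type (WT), had been given vehicle, fluoxetine or lithium through the milk of the mother from postnatal day 3 to 24. Every genotype and drug was sampled in females and males, which made 12 groups of 5 libraries, except HT lithium females with 4, and 59 libraries in all. The labels give neither the Ash1l allele nor a drug dose nor the dam of a mouse. Fluoxetine is an antidepressant that blocks serotonin reuptake, and lithium is a mood stabiliser.

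Heat shock proteins bind unfolded or partly folded proteins, hold them and help them fold. HSF1 is kept inactive by chaperones and, when unfolded proteins draw these away, it forms trimers that bind arrays of inverted GAA units, the heat shock element, upstream of these genes. Hspa1a and Hspa1b are neighbouring genes for nearly the same stress-inducible Hsp70. Hspa8 encodes the constitutive Hsc70, which also uncoats clathrin vesicles at synapses. Dnajb1 encodes a J-domain protein that delivers clients to Hsp70, and Hsph1 and Hspa4l encode Hsp110 proteins that exchange its nucleotide. Hsp90aa1 encodes Hsp90 alpha, and Chordc1 a co-chaperone that binds Hsp90. Hspb1 encodes the small heat shock protein Hsp25. Hspe1 encodes the lid of the mitochondrial chaperonin, so its protein works in the mitochondrion although its promoter answers to HSF1.

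Upstream sequence was examined because HSF1 binds there. RefSeq windows (GRCm38.p6) of 250 bases before the most upstream start were at hand for 8 of the 10 genes, all but Hspa8 and Hsp90aa1. An inverted pair of heat shock units, GAANNTTC or TTCNNGAA, occurred in 5 of the 8 windows and in 13% of 27025 windows of the same length. Both spellings are palindromes, so each reads the same on either strand, and matches of the pair may overlap each other. The longer array of 3 units, GAANNTTCNNGAA or TTCNNGAANNTTC, occurred in 1 window, that of Hspe1, and in 0.403% of all. The windows of Hspa1a (chr17:34972157-34972406, minus strand), Hspa1b (chr17:34959239-34959488, minus strand) and Hspb1 (chr5:135887669-135887918, plus strand) are shown whole, 5′ to 3′, because the first 2 show how alike the Hsp70 genes are. For Hsph1 (chr5:149636351-149636380, minus strand) and Hspe1 (chr1:55088051-55088080, plus strand), whose windows overlap exons, only 30 bases around the match are shown. Capitals mark the matches.
Hspa1a: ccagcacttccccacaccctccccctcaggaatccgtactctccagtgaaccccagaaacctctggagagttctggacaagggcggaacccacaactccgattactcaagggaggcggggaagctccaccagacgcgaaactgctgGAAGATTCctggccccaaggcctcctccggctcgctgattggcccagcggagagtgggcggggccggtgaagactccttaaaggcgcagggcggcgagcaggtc
Hspa1b: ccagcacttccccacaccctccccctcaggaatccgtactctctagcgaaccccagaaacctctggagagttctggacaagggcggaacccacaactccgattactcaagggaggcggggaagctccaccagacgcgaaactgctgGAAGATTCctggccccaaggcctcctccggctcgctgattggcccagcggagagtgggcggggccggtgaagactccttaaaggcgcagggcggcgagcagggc
Hspb1: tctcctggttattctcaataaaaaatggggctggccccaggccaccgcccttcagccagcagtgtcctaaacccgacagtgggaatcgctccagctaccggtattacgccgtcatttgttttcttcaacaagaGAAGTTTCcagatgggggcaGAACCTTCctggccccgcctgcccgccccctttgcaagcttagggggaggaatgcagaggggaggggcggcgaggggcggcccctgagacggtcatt
Hsph1: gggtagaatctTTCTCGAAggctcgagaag
Hspe1: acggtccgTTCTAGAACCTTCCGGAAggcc
The Hspa1a and Hspa1b windows were the same at 247 of 250 bases. Their 3 differences were C44T, T47C and T249G, with the Hspa1a base first and positions counted from 1 at the 5′ end of the window. In both, the match began 104 bases before the start of the gene. In Hsph1 it began 33 bases before the start, and in Hspb1 matches began 117 and 97 bases before it. In Hspe1 overlapping matches began 89, 84 and 79 bases before it, and the capitals cover all of them. No match was found in the windows of Dnajb1, Hspa4l and Chordc1, which says only that these letters are not in these 250 bases. The windows of Hspa4l and Chordc1 overlap exons of the same gene in the other annotation used here.

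The likeness extended into the messages, which matters for the counts. Of all runs of 31 bases in the transcripts of Hspa1a (ENSMUSG00000091971, chromosome 17, 34969190 to 34972156), 63.8% also occurred in Hspa1b (ENSMUSG00000090877, chromosome 17, 34956436 to 34959238). In the other direction, 67.6% of the runs in Hspa1b occurred in Hspa1a. Reads from these shared stretches could be split between the genes in either way, so each of the 2 values alone is uncertain. Hspa8 shared 43.5% of its runs with other genes, mostly with Gm15459. Hsp90aa1 shared 51.4%, mostly with Gm12346. Hspb1 shared 52.3%, all with Hsp25-ps1, and Hspe1 shared 24.8%. Hsph1 shared 0, and Dnajb1, Hspa4l and Chordc1 shared at most 2.23%.

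The libraries held between 24470332 and 36323070 reads (median 27979197). Values are given as normalised counts, reads divided by the size factor of the library, and all 10 genes passed the filter on low values. Ash1l itself lay between 3641 and 4382 in the 29 HT libraries and between 4703 and 6218 in 29 of the 30 WT libraries. The library labelled WT vehicle female replicate 3 had 3557, below every HT library. This library also had the highest summed level of the 5 choroid plexus markers of all 59 libraries (7760, against 67.3 to 1156 in the others) and the lowest of the 5 excitatory neuron markers (86963, against 110566 to 187301). Its oligodendrocyte markers summed to 233822, against 57941 to 177980 in the others. The cortical neuron markers Slc17a7, Camk2a and Tbr1 were present in every library. In bulk tissue, fewer cells of a type and less RNA per cell cannot be told apart.

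Hspa8 and Hsp90aa1 dominated the set. Per kilobase of exon, Hspa8 had a mean normalised count of 12198 ± 996 (SD, 59 libraries) and Hsp90aa1 7642 ± 852. Hsph1, the Hsp110 gene, followed at 1123 ± 118, Hspe1 at 737 ± 75.8 and Dnajb1 at 496 ± 51.3. Hspa4l stood at 427 ± 48.5 and Chordc1 at 265 ± 42.5. The small heat shock gene Hspb1 (116 ± 33.3) and the inducible Hsp70 genes Hspa1a (99.8 ± 24.2) and Hspa1b (97.8 ± 32.1) were the lowest. The order from Hspa8 down to Dnajb1 was the same in 59 of 59 libraries. Dnajb1 exceeded Hspa4l in 51 of 59, Hspa4l exceeded Chordc1 in 59 and Chordc1 exceeded Hspb1 in 58. This order depends on the length used, that of all annotated exons of a gene, which may exceed that of the transcripts present. It was 11792 bases for Hspa4l and 3204 for Dnajb1. Before division by length, Hspa4l had the higher mean normalised count (5037, against 1589 for Dnajb1). The order of the 3 lowest was not settled: Hspb1 exceeded Hspa1a in 42 of 59 libraries, and Hspa1a exceeded Hspa1b per kilobase in 30.

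Hspa1b, Hspb1 and Hspa1a, the genes with the fewest normalised counts, were also the most variable between libraries of the same group. The SD of log2(normalised count + 1) within groups was 0.43 for Hspa1b, 0.39 for Hspb1 and 0.34 for Hspa1a, and between 0.11 and 0.17 for the other 7 genes. From the lowest to the highest of all 59 libraries, Hspb1 spanned 5.77-fold (43.3 to 250 normalised counts), Hspa1b 4.35-fold (128 to 557) and Hspa1a 3.55-fold (135 to 478). Hspa8 spanned 1.53-fold (43549 to 66844). The ratio of Hspa1a to Hspa1b lay between 0.536 and 1.86 (median 1.06).

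**Figure D1:**
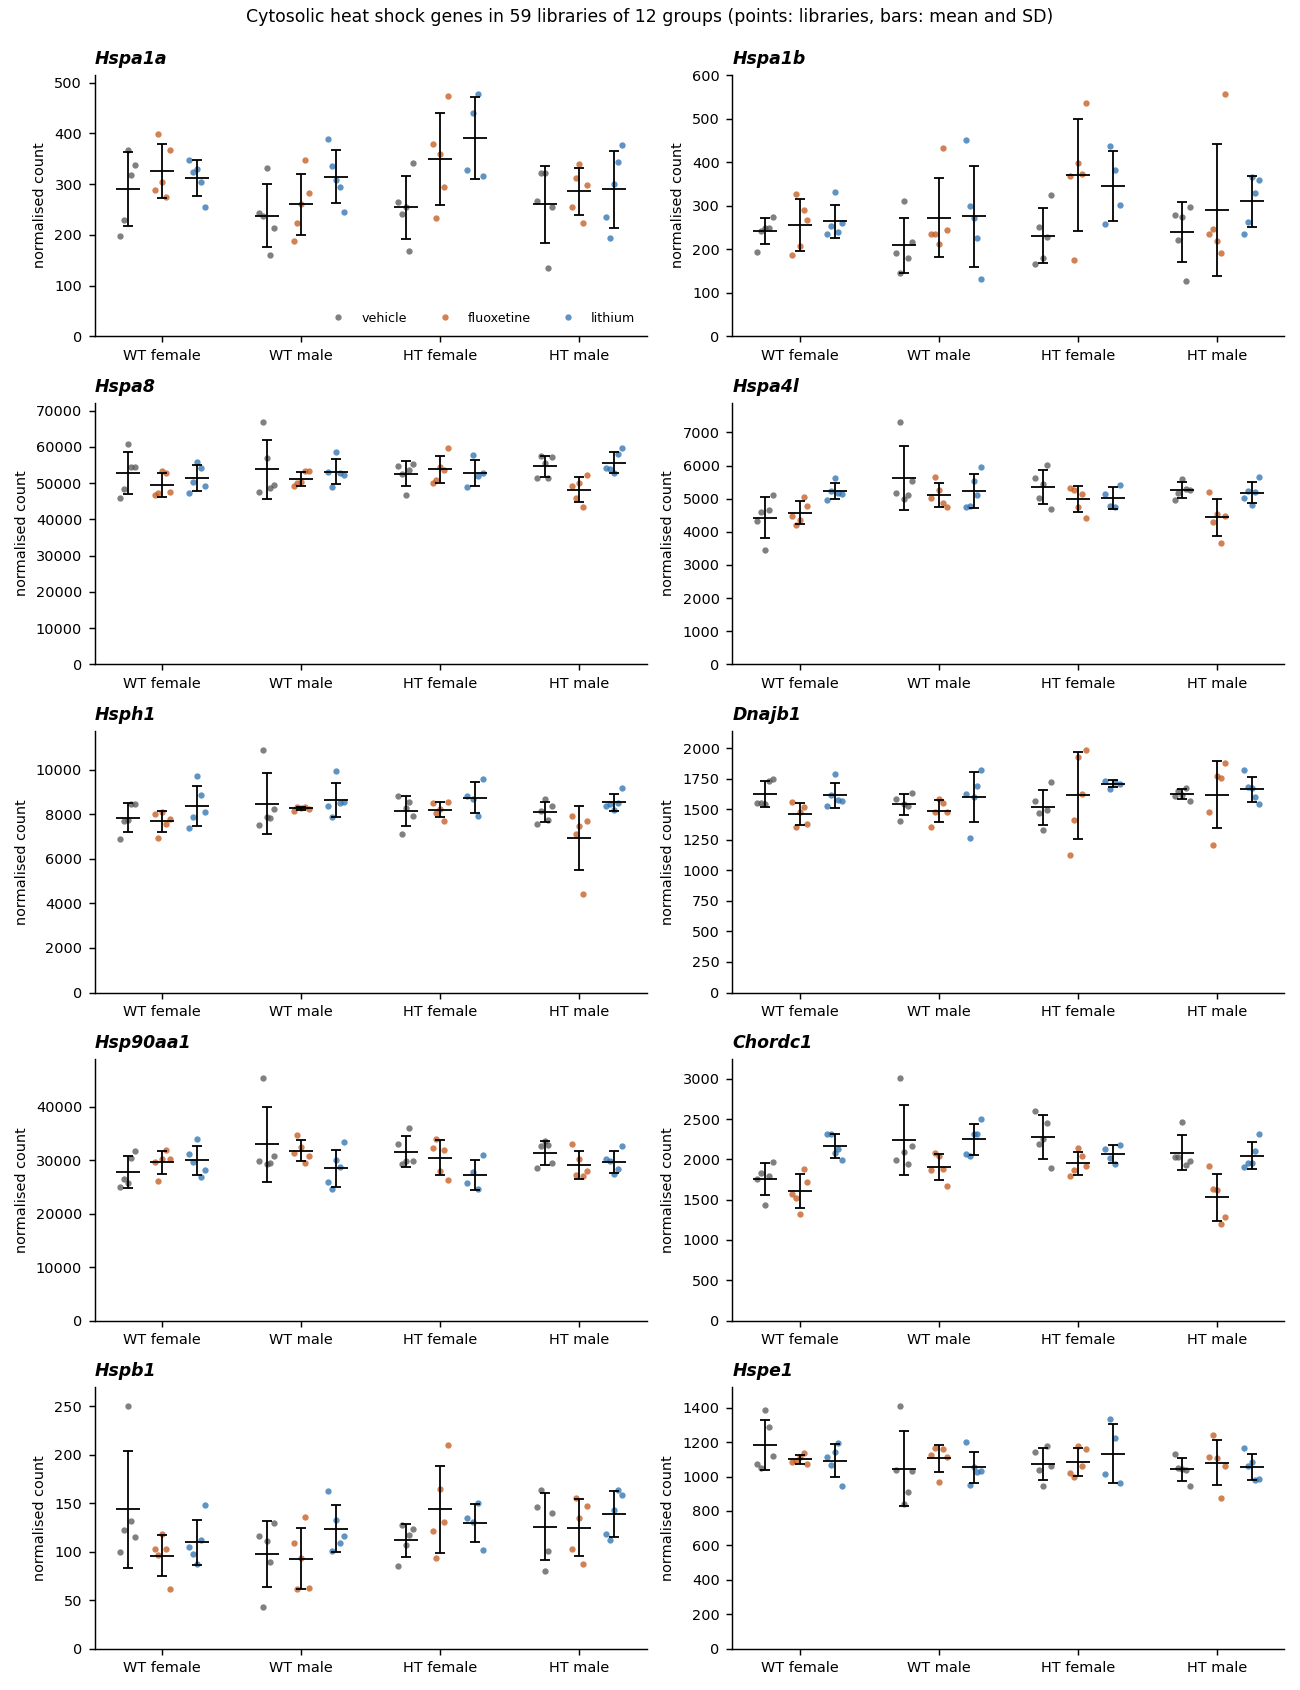
Normalised count (vertical axis, from 0) of each of the 10 genes in every library, by genotype and sex (horizontal axis) and drug (colour); points are libraries and bars the mean and SD of a group of 5, or 4 for HT lithium females. Chordc1 is lower under fluoxetine than under lithium in each genotype and sex, HT fluoxetine male replicate 4 is the low point of Hsph1 (4415), and WT vehicle male replicate 2 is the high point of Hsp90aa1 (45285).

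A few libraries stood apart in many of the genes at once. HT fluoxetine male replicate 4 was the lowest library of its group in 9 of the 10 genes, and the lowest of all 59 in Hsph1 (4415), Hspa8 (43549) and Chordc1 (1202). Its Dnajb1 was not low (1759, against 1208 to 1876 in the rest of the group). The same library had the highest levels of Cirbp and Rbm3, genes for RNA-binding proteins that rise when cells are cooled. Cirbp was 4484 there, against 974 to 2015 in the other 58 libraries, and Rbm3 was 5381, against 1964 to 4017. It was also the lowest of all 59 in the summed level of the endothelial markers (4874), the mural cell markers (4513) and the endoplasmic reticulum chaperones (39971), and second highest in that of the glucocorticoid-responsive genes (19342). The part of these in its low heat shock genes was not tested. WT vehicle male replicate 2 was the highest of all 59 in 6 genes (Hsph1, Hspa8, Hsp90aa1, Hspa4l, Chordc1 and Hspe1) and the lowest in Hspb1 (43.3). The library labelled WT vehicle female replicate 3 was the highest in Hspb1 (250) and the lowest in Hspa4l (3449).

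Chordc1, the gene for the Hsp90 co-chaperone, fell with fluoxetine, and none of the other 9 genes passed the threshold. In WT females Chordc1 was 1754, 1836, 1440, 1795 and 1968 with vehicle and 1570, 1521, 1319, 1884 and 1725 with fluoxetine. In WT males it was 1994, 3005, 2092, 1942 and 2166 with vehicle and 1867, 2077, 2047, 1884 and 1675 with fluoxetine. The fluoxetine and vehicle ranges overlapped in WT mice of both sexes and in HT females. In HT females it was 2601, 2194, 2251, 2449 and 1896 with vehicle and 1789, 1869, 2141, 2047 and 1916 with fluoxetine. In HT males it was 2024, 2026, 2462, 1929 and 1976 with vehicle and 1923, 1629, 1619, 1202 and 1286 with fluoxetine. In HT males all 5 fluoxetine values lay below all 5 vehicle values, by a small margin. Set against the mean of the vehicle libraries of their own genotype and sex, 19 of the 20 fluoxetine libraries were lower.

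Averaged over genotypes and sexes with equal weight, Chordc1 fell by 0.26 on the log2 scale (± 0.051 SE, limma, adjusted p = 0.000489), to 0.837 of its vehicle level. P-values were adjusted over all 17875 genes tested, and a gene was called at an adjusted p under 0.05. The background was high: 13.5% of all genes were called in this comparison, so 1 of 10 is no more than the share of genes at large. The median log2 difference of the 10 genes was -0.052, and 0.0072 over all genes. Hspa1a (0.24 ± 0.10, adjusted p = 0.114) and Hspa1b (0.32 ± 0.13, adjusted p = 0.102) had the largest positive differences but missed the threshold. With Hspa1a and Hspa1b reads summed, the difference was 0.28 (adjusted p = 0.0715). The Hsp110 genes Hspa4l (-0.11 ± 0.043, adjusted p = 0.09) and Hsph1 (-0.073 ± 0.047, adjusted p = 0.321) also missed it. For Hspe1 the 95% interval of the difference ran from -0.075 to 0.11, and for Hsp90aa1 from -0.12 to 0.065. Chordc1 was called in all 13 alternative analyses and with each of 40 libraries left out in turn. In 1 of the 13 only the reads of Hspa1a and Hspa1b were summed, which left the Chordc1 values as they were. Hspa4l was called without the library labelled WT vehicle female replicate 3 (adjusted p = 0.0224) and without HT fluoxetine male replicate 1 (adjusted p = 0.0466), and Hspa1b without HT fluoxetine female replicate 2 (adjusted p = 0.0418).

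Hspa1a, an inducible Hsp70 gene, rose with lithium, and none of the other 9 genes passed. Over all groups, Hspa1a had a lowest, median and highest normalised count of 135, 255 and 367 with vehicle (20 libraries) and 193, 324 and 478 with lithium (19 libraries). In WT males it was 244, 237, 332, 161 and 213 with vehicle and 390, 335, 309, 295 and 246 with lithium. In HT females it was 264, 242, 255, 169 and 342 with vehicle and 327, 441, 478 and 317 with lithium. The ranges overlapped, with 4 of 19 lithium libraries above the highest vehicle library. Set against the mean of the vehicle libraries of their own genotype and sex, 16 of 19 lithium libraries were higher. These were 4 of 4 in HT females, 3 of 5 in HT males, 4 of 5 in WT females and 5 of 5 in WT males. The log2 difference was largest in the mice listed, 0.63 ± 0.22 in HT females and 0.43 ± 0.21 in WT males. It was smaller in HT males (0.18 ± 0.21) and WT females (0.14 ± 0.21), and limma called Hspa1a in none of the 4 alone.

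The average difference of Hspa1a was 0.34 ± 0.11 on the log2 scale (limma, adjusted p = 0.0237), or 1.27-fold. Of all genes 13.1% were called in this comparison. Its neighbour Hspa1b differed by a similar amount with a wider error (0.36 ± 0.14, adjusted p = 0.0663), also in 16 of 19 libraries. With the reads of the 2 genes summed, the difference was 0.35 (adjusted p = 0.0254). Hspa1a was called in all 13 alternatives, of which the summed reads just given are 1, and with each of 39 libraries left out (adjusted p up to 0.0479). Hspa1b was called when the fit held only the groups compared (adjusted p = 0.0437). It was also called without HT vehicle female replicate 5 (adjusted p = 0.0448), without replicate 3 of the WT vehicle males (adjusted p = 0.0422) and without WT lithium male replicate 5 (adjusted p = 0.0233). Of the abundant chaperones none passed: the 95% interval of the difference ran from -0.077 to 0.071 for Hspa8 and from -0.19 to -0.0022 for Hsp90aa1 (adjusted p = 0.184). Dnajb1 (0.062 ± 0.049) and Hsph1 (0.078 ± 0.048) did not pass. The median of the 10 genes was 0.052, and 0.0039 over all genes.

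The 2 drug comparisons share their vehicle libraries, so fluoxetine was also set directly against lithium. There Chordc1 and the Hsp110 gene Hsph1 were lower with fluoxetine. Chordc1 had a lowest, median and highest normalised count of 1202, 1828 and 2141 with fluoxetine and 1900, 2104 and 2503 with lithium. Thus 14 of 20 fluoxetine libraries lay below the lowest lithium library, and 19 of 20 below the lithium mean of their genotype and sex. The average difference was -0.30 ± 0.052 (limma, adjusted p = 4.57e-05). Hsph1 had 4415, 8054 and 8537 with fluoxetine and 7378, 8495 and 9933 with lithium. Its ranges overlapped, but 20 of 20 fluoxetine libraries were below the lithium mean of their genotype and sex, with an average difference of -0.15 ± 0.048 (limma, adjusted p = 0.0259). That call was lost with upper quartile factors (adjusted p = 0.0543). Of all genes 13.9% were called, against 2 of the 10. Hspa4l, the other Hsp110 gene, was -0.12 ± 0.044 (adjusted p = 0.0673). It was called with the trend of each library with GC content and length removed (adjusted p = 0.0161) and in a fit of only the groups compared (adjusted p = 0.0272). It was also called without HT fluoxetine male replicate 1 (adjusted p = 0.033) or WT fluoxetine male replicate 2 (adjusted p = 0.0492). Neither inducible Hsp70 gene passed: the 95% interval of the difference ran from -0.31 to 0.11 for Hspa1a and from -0.31 to 0.22 for Hspa1b.

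**Figure D2:**
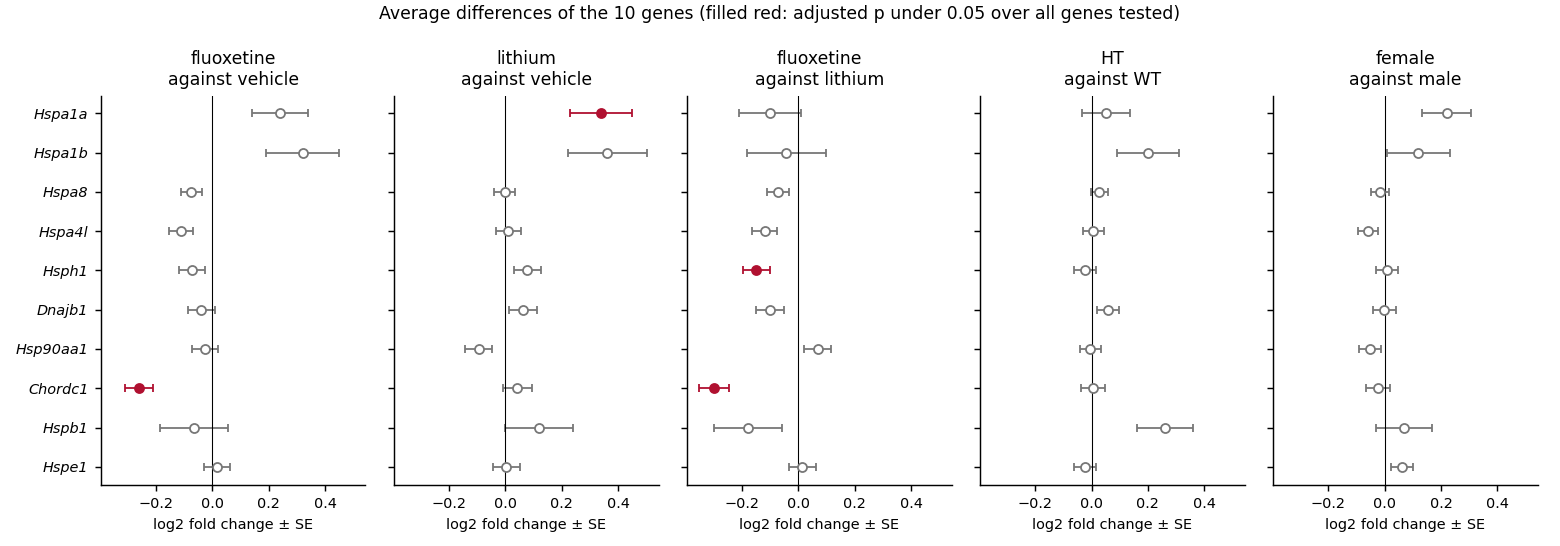
Log2 fold change with its standard error (horizontal axis) of each of the 10 genes (vertical axis) in 5 average comparisons; filled red points passed an adjusted p of 0.05. The 4 filled points are Chordc1 with fluoxetine against vehicle (-0.26) and against lithium (-0.30), Hsph1 with fluoxetine against lithium (-0.15) and Hspa1a with lithium against vehicle (0.34).

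Other genes moved with the drugs in the same libraries, where 13.5% of all genes were called with fluoxetine and 13.1% with lithium. Of the 5 endothelial markers 4 fell with fluoxetine and 4 with lithium (median -0.24 and -0.19). Their summed level ran from 6311 to 10877 with vehicle, 4874 to 7041 with fluoxetine and 5628 to 6865 with lithium. The medians were 7100, 6101 and 6328, and no marker was at 0 in all libraries. The 10877 was the library labelled WT vehicle female replicate 3, and the 4874 was HT fluoxetine male replicate 4. Of the 5 astrocyte markers 2 fell with fluoxetine and 3 with lithium. Their summed level ran from 32433 to 41850 with vehicle, 28020 to 38025 with fluoxetine and 25724 to 37138 with lithium. Of the 4 mural cell markers 1 rose and 1 fell with fluoxetine and 1 fell with lithium, and their summed level had a median of 7531 with vehicle, 6591 with fluoxetine and 6596 with lithium. With lithium 3 of 5 meningeal markers and 2 of 5 microglia markers fell as well. The summed level of the meningeal markers ran from 2907 to 6884 with vehicle and 3269 to 5164 with lithium (medians 4674 and 3725). The 6884 was again the library labelled WT vehicle female replicate 3. The summed level of the microglia markers ran from 5747 to 8247 with vehicle and 5078 to 7300 with lithium. The summed level of Cirbp and Rbm3 ran from 3444 to 5084 with vehicle, 3718 to 9866 with fluoxetine and 2961 to 4783 with lithium. The medians were 4341, 4659 and 3899. The 9866 was HT fluoxetine male replicate 4, and no other library exceeded 5908. Of 14 immediate early genes 8 fell with fluoxetine (median -0.43) and 2 with lithium (median -0.17). Of 16 clock genes 1 rose and 7 fell with fluoxetine, and 1 rose and 1 fell with lithium. Of 14 glucocorticoid-responsive genes 6 rose with each drug, and 1 fell with lithium. The part of these in the differences of Chordc1, Hspa1a and Hsph1 was not tested.

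None of the 10 genes passed the test for Ash1l genotype on average. None was called in HT against WT over the 6 drug and sex strata (limma), where 0.358% of all genes were. At an unadjusted p under 0.05 there was 1, Hspb1 (0.26 ± 0.099, adjusted p = 0.407), beside 8.10% of all genes, and edgeR and DESeq2 called 0. Hspb1 had a lowest, median and highest normalised count of 79.8, 131 and 210 in HT and 43.3, 109 and 250 in WT libraries. The 95% interval of the HT difference was -0.033 to 0.088 for Hspa8, -0.077 to 0.088 for Chordc1 and -0.12 to 0.22 for Hspa1a. Between females and males 0 of the 10 genes were called by limma, edgeR or DESeq2, with 0.117% of all genes called by limma. At an unadjusted p under 0.05 there was 1, Hspa1a, at 0.22 ± 0.086 in females against males (adjusted p = 0.292), beside 12.4% of all genes.

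Within single groups, 2 of the 10 genes were called by genotype in vehicle-treated females. In HT against WT vehicle females Chordc1 rose by 0.37 ± 0.10 (limma, adjusted p = 0.0228) and Hspa4l by 0.28 ± 0.087 (adjusted p = 0.0411), and 6.20% of all genes were called. Neither call held in every alternative: Chordc1 was called in 9 of 13 and Hspa4l in 7 of 13. With 1 library left out in turn, Chordc1 was called in 6 of 10 fits and Hspa4l in 4 of 10. Without the library labelled WT vehicle female replicate 3 the values were 0.30 (adjusted p = 0.141) and 0.19 (adjusted p = 0.247). With the trend of each library with GC content and length removed they were 0.11 (adjusted p = 0.655) and 0.059 (adjusted p = 0.811), while a fit of only the groups compared kept the folds at 0.37 and 0.28 (adjusted p = 0.201 and 0.242). Without HT vehicle female replicate 1, 2 or 4 the folds were about as large, 0.32, 0.38 and 0.34 for Chordc1 and 0.26, 0.30 and 0.24 for Hspa4l, although neither passed. In vehicle males limma called 0 of the 10 genes and 0.00559% of all genes, with 0 of the 10 at an unadjusted p under 0.05 and 0 called by edgeR or DESeq2. The genotype by sex interaction among vehicle libraries, added after these values were seen, was 0.46 ± 0.14 for Chordc1 (adjusted p = 0.0585) and 0.36 ± 0.12 for Hspa4l (adjusted p = 0.0787). None of the 10 was called there by limma, with 3 at an unadjusted p under 0.05 beside 20.6% of all genes, or by edgeR, 2 were by DESeq2 (Hspa4l and Chordc1), and 2.90% of all genes were by limma. Leaving out HT vehicle male replicate 3, or replicate 1 or 4 of the WT vehicle males, gave 1 call, Chordc1. Leaving out replicate 5 of either group of vehicle females gave 2, Chordc1 and Hspa4l.

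The fluoxetine difference of Chordc1 was past the threshold within HT males alone (-0.46 ± 0.10, limma, adjusted p = 0.00525), where 5.74% of all genes were called. It was -0.22 in HT females, -0.14 in WT females and -0.21 in WT males. Without HT fluoxetine male replicate 4 the HT male value was -0.38 (adjusted p = 0.0504), and in a fit of only the groups compared it was again -0.46 (adjusted p = 0.0721). Without HT fluoxetine male replicate 1 it was joined by Hsph1 and Hspa4l. The difference between the strata was tested as interactions. For Chordc1 the genotype by fluoxetine interaction was -0.16 ± 0.10 (adjusted p = 0.523) and the sex by fluoxetine interaction 0.16 ± 0.10 (adjusted p = 0.583). Limma called 0 of the 10 genes in either, beside 0.0392% and 0.425% of all genes, with 0 and 0 at an unadjusted p under 0.05 and 0 called by edgeR or DESeq2.

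Among fluoxetine libraries, HT against WT went in opposite directions in the sexes for Chordc1. It was 0.29 ± 0.10 in females (adjusted p = 0.121) and -0.33 ± 0.10 in males (adjusted p = 0.0986). Limma, edgeR and DESeq2 called 0 of the 10 within females, where limma called 1.95% of all genes, and 0 within males, where it called 0.386%. At an unadjusted p under 0.05 there were 2 in females and 3 in males, beside 15.6% of all genes in each sex. The genotype by sex interaction within fluoxetine, added after these values were seen, was 0.63 ± 0.14 (limma, adjusted p = 0.0143), with 1 of the 10 called beside 1.98% of all genes. It lost its call without HT fluoxetine male replicate 4 (0.54, adjusted p = 0.0628) or WT fluoxetine female replicate 3 (0.56, adjusted p = 0.0509). Removing the trend of each library with GC content and length also ended it (0.40, adjusted p = 0.0701). Without HT fluoxetine male replicate 1, Chordc1 and Hsph1 were called in HT against WT fluoxetine males.

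The other single comparisons called none of the 10 genes by limma. For fluoxetine against vehicle 0.00% of all genes were called in HT females, 2.85% in WT females and 0.850% in WT males. At an unadjusted p under 0.05 there were 3 of the 10 in HT females, 1 in WT females and 1 in WT males, beside 7.66%, 16.4% and 16.5% of all genes. In HT females these were Hspa1a (0.45 ± 0.21), Hspa1b (0.64 ± 0.27) and Chordc1 (-0.22 ± 0.10). For lithium against vehicle 2.98% of all genes were called in HT females, 0.252% in HT males, 2.45% in WT females and 0.476% in WT males. At an unadjusted p under 0.05 there were 3, 0, 2 and 2 of the 10, beside 20.3%, 12.3%, 20.9% and 15.1% of all genes. Hspa1a was 0.63 ± 0.22 in HT females (adjusted p = 0.0945) and was called there by DESeq2, and by limma without HT vehicle female replicate 5. Hspa4l in WT females (0.25 ± 0.087, adjusted p = 0.0905) was called without WT vehicle female replicate 5. For HT against WT with lithium, 0.00559% of all genes were called in females and 0.00559% in males, with 0 of the 10 genes at an unadjusted p under 0.05 in either sex. The genotype by lithium and the sex by lithium interaction called 0.00% and 0.00% of all genes, and so did the genotype by sex interaction within lithium (0.00%). The 10 genes had 1, 0 and 0 at an unadjusted p under 0.05 in these, beside 9.51%, 5.82% and 6.44% of all genes. In the comparisons of this paragraph, edgeR called 0 of the 10 and DESeq2 called 1, Hspa1a in HT females.

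The 10 genes were next read beside other chaperones. The 4 genes of the heat shock factor list passed in 0 of the 5 average comparisons by limma. At an unadjusted p under 0.05 there were 0 with fluoxetine, 2 with lithium and 2 for fluoxetine against lithium, where edgeR and DESeq2 each called 1. Hsf1, the gene of the factor itself, lay between 787 and 1227 normalised counts and differed by 0.0012 ± 0.038 with fluoxetine and 0.079 ± 0.038 with lithium (adjusted p = 0.989 and 0.168). Hsf2 differed by -0.065 and -0.059, Hsf4 by -0.0055 and 0.21, and Hsbp1, the gene of an HSF1-binding protein, by 0.014 and -0.0022. These are message levels, whereas HSF1 is switched mainly at the protein.

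Of 41 other cytosolic chaperones and co-chaperones, 3 rose and 5 fell with fluoxetine, and 4 rose and 2 fell with lithium. In the same comparisons 13.5% and 13.1% of all genes were called. Dnajb5, a gene for a J-domain protein, fell with fluoxetine (-0.26 ± 0.041, limma, adjusted p = 1.8e-05) and was lower with fluoxetine than with lithium (-0.34 ± 0.042). The Hsp90 co-chaperone genes Ptges3 (-0.16 ± 0.034), Ahsa2 (-0.15 ± 0.041) and Ppid (-0.15 ± 0.053) fell with fluoxetine, as did Cacybp (-0.15 ± 0.052). Ptges3 (-0.22 ± 0.035) and Cacybp (-0.19 ± 0.052) fell with lithium as well. The polyubiquitin gene Ubb (0.10 ± 0.035) and the chaperonin subunit genes Cct3 (0.088 ± 0.031) and Cct7 (0.083 ± 0.028) rose with fluoxetine. Genes that rose with lithium included the J-domain gene Dnaja4 (0.19 ± 0.028), Unc45a (0.19 ± 0.053), for a myosin chaperone, and Ahsa1 (0.085 ± 0.029), for an activator of Hsp90. Hsp90ab1, the constitutive Hsp90, differed by 0.074 ± 0.04 and 0.023 ± 0.04 with the 2 drugs and did not pass. Stip1, which bridges Hsp70 and Hsp90 (-0.069 and 0.0051), Dnaja1 (-0.093 and -0.049) and Bag3 (-0.066 and -0.03) did not pass either.

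The drugs were also compared on chaperones of the endoplasmic reticulum. Of 17 genes for them and the unfolded protein response, 9 rose and 0 fell with lithium (median 0.13), and 0 rose and 3 fell with fluoxetine. Fluoxetine against lithium gave 14 called lower and 0 higher (median -0.19), and 17 of 17 were negative. Of all genes 13.1% were called with lithium, 13.5% with fluoxetine and 13.9% for fluoxetine against lithium. With lithium the calls included Hyou1 (0.26 ± 0.044), Sdf2l1 (0.42 ± 0.094), Pdia6 (0.21 ± 0.046) and Hspa5 (0.26 ± 0.066), the gene of the Hsp70 of this compartment. Xbp1 (-0.19 ± 0.041), the gene of a transcription factor of the response, fell with fluoxetine, as did Pdia4 (-0.19 ± 0.062) and Canx (-0.086 ± 0.027). Of 7 mitochondrial chaperones and proteases 1, Lonp1, rose with fluoxetine (0.10 ± 0.031). With lithium 0 were called by limma, edgeR or DESeq2, with 1 at an unadjusted p under 0.05. Hspd1, the chaperonin that Hspe1 caps, differed by -0.055 ± 0.044 and -0.018 ± 0.044, and Hspe1 by 0.017 ± 0.047 and 0.0026 ± 0.048. The cold-inducible Cirbp rose with fluoxetine (0.31 ± 0.078, adjusted p = 0.00692), and Rbm3 missed the threshold (0.19 ± 0.068, adjusted p = 0.0531). Both were higher with fluoxetine than with lithium (0.41 ± 0.079 and 0.31 ± 0.069). The lists were not tested as sets.

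**Figure D3:**
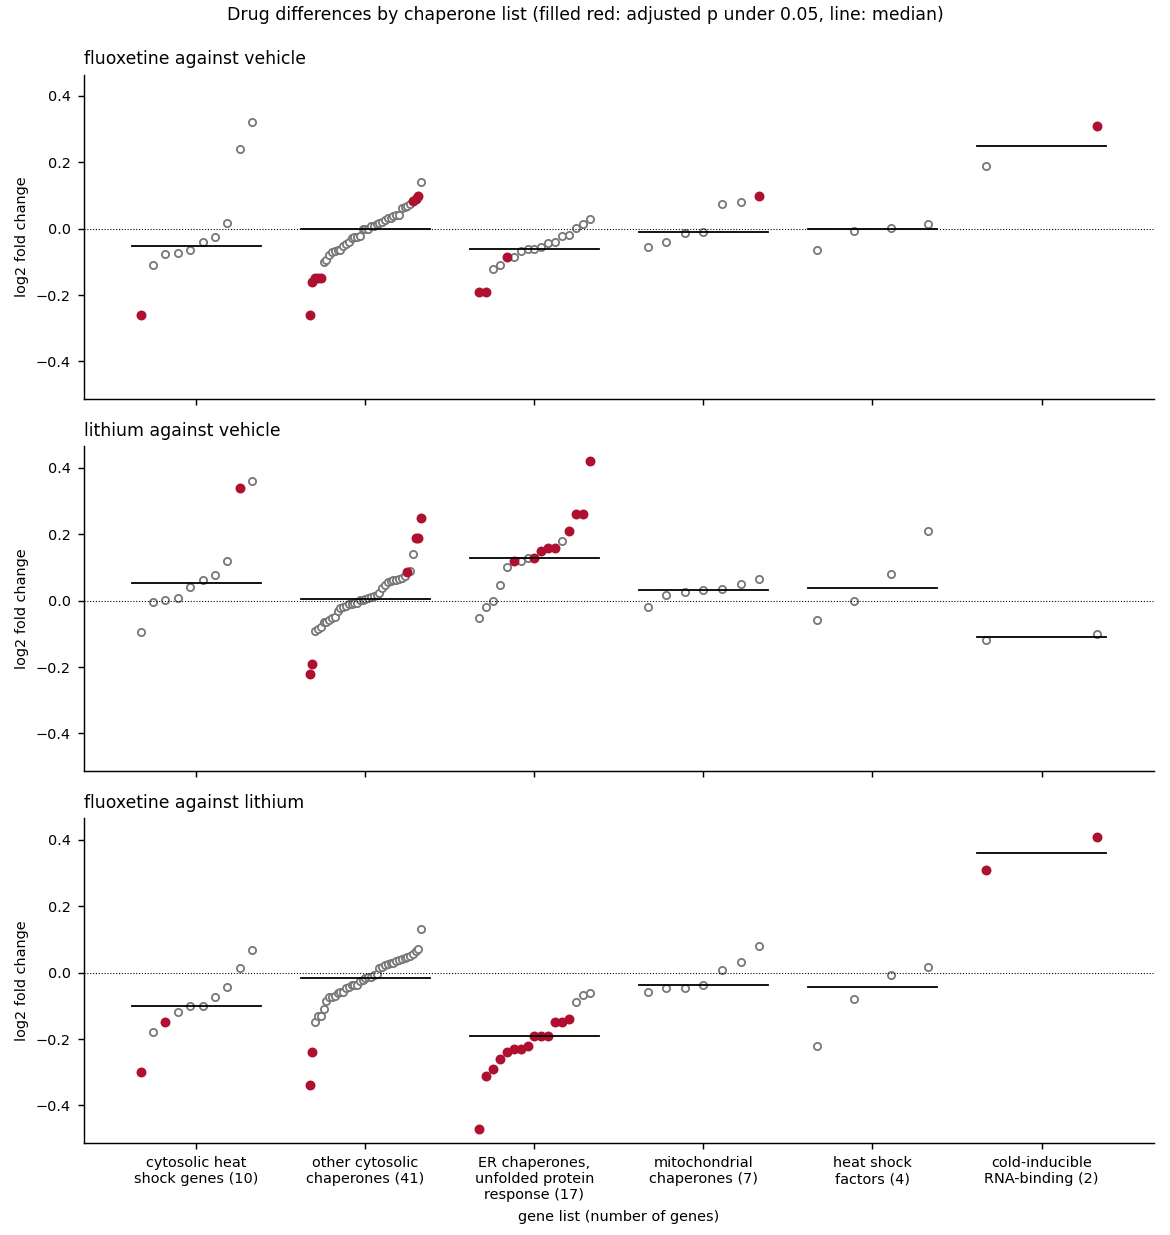
Log2 fold change (vertical axis) of every gene of 6 lists (horizontal axis, with the number of genes) in 3 drug comparisons; points are genes, filled red where the adjusted p was under 0.05, and lines are list medians. Against lithium, 17 of 17 genes of the endoplasmic reticulum list are negative with fluoxetine and 14 of them are filled, and of the 10 cytosolic heat shock genes 8 are negative and 2 filled.

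Whether the 10 genes rose and fell together was asked among libraries of the same group, after each group mean was subtracted from log2(normalised count + 1). Of 45 pairs, 14 were correlated (within-group permutation test, 100000 resamples, two-sided, adjusted p under 0.05 over the 45 pairs), 11 positively and 3 negatively. The closest pair joined Hsp90aa1 and the Hsp110 gene Hspa4l (r = 0.83, rho = 0.83, permutation p = 1e-05, the smallest the resamples can give, adjusted p = 9e-05). Hspa4l and Chordc1 had r = 0.78 (rho = 0.70, permutation p = 1e-05, adjusted p = 9e-05), and Hsp90aa1 and Chordc1 r = 0.61 (rho = 0.55, permutation p = 4e-05, adjusted p = 0.000257). Hsph1 joined Hspa4l (r = 0.65), Hspa8 (r = 0.60), Hsp90aa1 (r = 0.57) and Chordc1 (r = 0.51). For Hsph1 and Chordc1, r was 0.10 in females alone and 0.71 in males alone, a difference that was not tested. The lowest and the highest of all 59 libraries in both genes, HT fluoxetine male replicate 4 and WT vehicle male replicate 2, are male. Over both sexes, r was 0.32 without the 2 libraries farthest from the median of Hsph1. It was 0.42 without the 2 WT vehicle libraries that stood apart. The inducible Hspa1a and Hspa1b were correlated with each other at r = 0.64 (rho = 0.65), in values that share ambiguous reads. Hspa1a was also correlated with Hspa8 (r = 0.44), Hspa1b with Hspb1 (r = 0.46), and Hspa8 with Hspe1 (r = 0.51). Dnajb1 was correlated with none of the other 9 by this test.

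The 3 negative pairs were Hsp90aa1 and Hspb1 (r = -0.54), Hspb1 and Hspa4l (r = -0.52), and Hspa1b and Hsp90aa1 (r = -0.40). In these, a gene of high GC content was paired with a gene of low GC content. The exons of Hspb1 hold 61.2% G and C and those of Hspa1b 58.1%, against 44.9% in Hsp90aa1 and 42.4% in Hspa4l. Hspa1a (58.9%) and Chordc1 (38.4%) were in none of the 3 pairs. Libraries differed in how their counts depended on GC content, and the genes followed this trend in opposite directions: the correlation with it was -0.71 for Hspa4l, -0.68 for Chordc1 and -0.67 for Hsp90aa1, and 0.63 for Hspb1, 0.48 for Hspa1b and 0.44 for Hspa1a. With the trend of each library with GC content and length removed, an analysis added after seeing the data, 19 pairs passed and all were positive. Of the 11 positive pairs 10 stayed past the threshold, and of the 3 negative pairs 0 did. Hsp90aa1 and Hspa4l kept r = 0.83, Hsph1 and Hspa4l had 0.77, and Hsp90aa1 and Hspb1 had -0.29. All 14 pairs kept their sign without the 2 libraries farthest from the median of the first gene. In females alone 6 pairs passed, and in males alone 10. The number of negative pairs was 1 in females, 1 in males, 1 without the 2 WT vehicle libraries that stood apart, and 5 without HT fluoxetine male replicate 4.

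**Figure D4:**
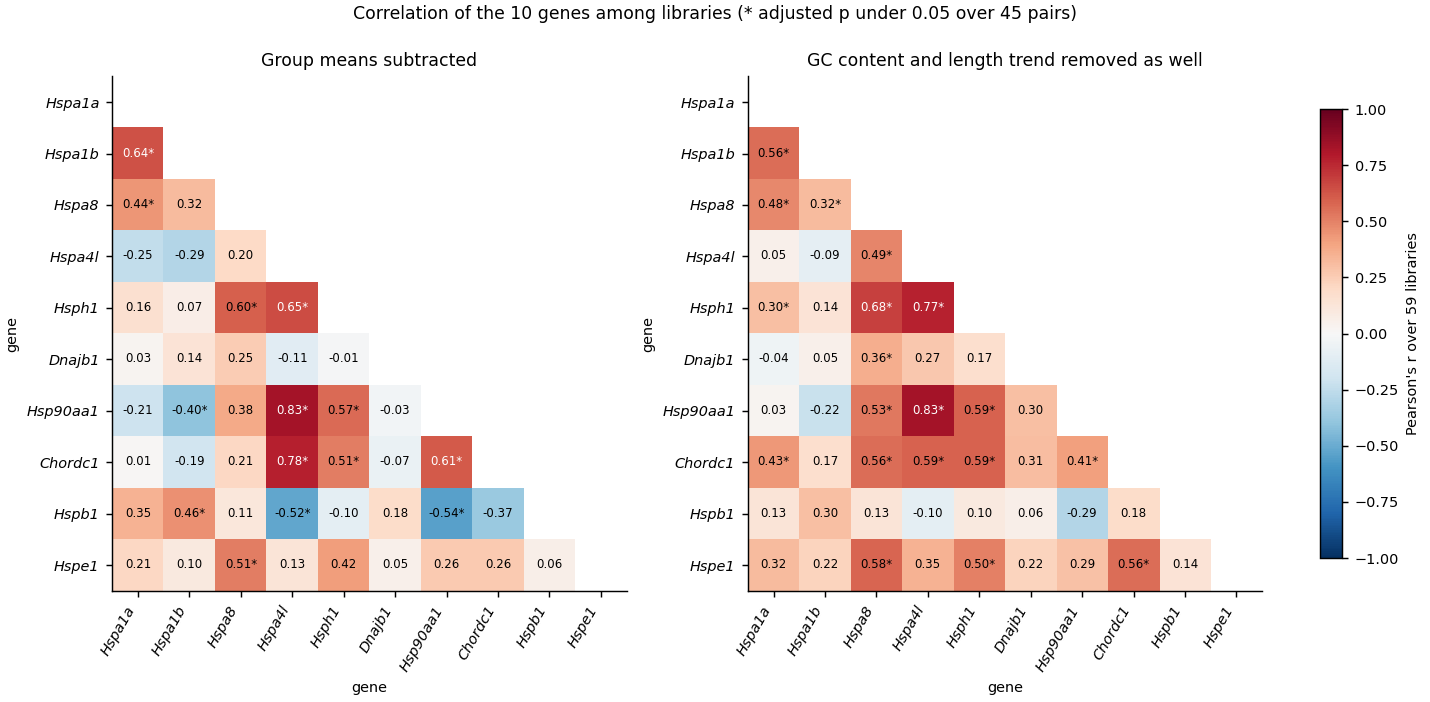
Pearson correlation between the 10 genes over 59 libraries (colour from -1 to 1, value in each cell), with group means subtracted (left) and with the trend with GC content and length removed as well (right); asterisks mark an adjusted p under 0.05. At left 11 positive and 3 negative pairs are marked, and at right 19 pairs, all positive.

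Over all 59 libraries, the genes outside the set that most resembled it were ranked by their correlation with the mean of the 10 standardised values, given here as a description of libraries that share depth, base composition and treatment. Among 12726 genes, Stip1, the Hsp70 and Hsp90 bridging co-chaperone, was first (r = 0.86). It was followed by genes of the endoplasmic reticulum, Calr (0.81), Pdia6 (0.75), Hsp90b1 (0.75), Hspa5 (0.74), Pdia3 (0.72) and Manf (0.71), and then by Zdhhc5 (0.68). With group means subtracted the values were 0.86 for Stip1, 0.76 for Calr and 0.68 for Hspa5. Within the set, Hspa8 (0.74) and Hsph1 (0.69) resembled the mean of the other 9 genes most, and Hspb1 (0.04) and Hsp90aa1 (0.13) least. WT vehicle male replicate 2 had the highest Stip1 of all libraries (5330, against 3072 to 4378 in the others), and HT fluoxetine male replicate 4 the lowest (3072, against 3415 to 5330).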

How the data were processed

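The deposited table holds signal values made by the authors: estimated reads per gene divided by a size factor for each library, called normalised counts here. Libraries were made with a stranded mRNA kit, per the labels' protocols. Salmon 0.11.2, R 3.6.0, DESeq2 1.19.11 and GRCm38 are named in the submitters' processing notes. Of the values, 100.0% were whole reads within 0.01 once multiplied back, which gave the depth. Genes with at least 10 normalised counts in at least 5 libraries were kept, 17875 of 18088, and all 10 genes described passed.

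Differences were tested with limma 3.58.1 (trended, robust) in R 4.3.3 on log2(normalised count + 1), so fold changes of low genes are understated. A single fit held all 59 libraries as 12 group means. Adjusted p-values are Benjamini-Hochberg over all genes tested, with a threshold of 0.05, and an error beside a log2 fold change is its standard error. Average comparisons weighted genotype and sex strata equally. edgeR 4.0.16 and DESeq2 1.42.0 were run on the recovered reads as alternatives, beside other pseudocounts, filters, scalings, removal of the trend with GC content and length, a replicate block and each library left out in turn. The tests were tried on simulated data first. Litters and dams are not labelled, so the p-values cover the spread among these libraries alone, which may be partly technical. The drugs were given through the mother, so mice of the same litter would share their treatment. Libraries were nevertheless counted as independent, and the p-values of the drug comparisons may be too small. Replicate numbers are not said to pair samples.

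Gene annotation was GENCODE M21 (GRCm38), and promoter windows came from RefSeq. The 10 genes and the other lists were chosen with earlier results of these data known. All 10 genes were named. Of the other lists, genes past the threshold in an average comparison (at most 6 per list and comparison, smallest p first) and the heat shock factors, Hspd1, Hsp90ab1, Dnaja1, Stip1, Bag3, Cirbp and Rbm3 could be named.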

Additional observations from a re-analysis of the deposited data

Results flagged for a closer look

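For each gene in each group, the gap from the highest or lowest library to its nearest neighbour was divided by the group range. Of these 120 cases, in groups of 4 or 5 libraries, 10 passed Dixon's 95% critical value (0.71 for 5 libraries). Chance alone passes about 1 in 20 of independent cases. These cases are not independent, since the genes are correlated, so the count was not tested against chance. WT vehicle male replicate 2 was the high library in 4 of the 10. Its Hsp90aa1 was 45285, against 29264 to 30732 in the rest of its group (ratio 0.888), its Hsph1 10884 against 7521 to 8235 (0.755), its Chordc1 3005 against 1942 to 2166 (0.750) and its Hspa4l 7314 against 4996 to 5538 (0.730). HT fluoxetine male replicate 4 was low in Hsph1, at 4415 against 7098 to 7940 (0.809).

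The inducible Hsp70 genes had 3. Hspa1b was 557 in HT fluoxetine male replicate 5, against 192 to 246 (0.766), and 433 in WT fluoxetine male replicate 4, against 213 to 244 (0.810). Hspa1a was 135 in HT vehicle male replicate 4, against 255 to 323 (0.729). Chordc1 was 2462 in HT vehicle male replicate 3, against 1929 to 2026 (0.800), and Hspe1 was 970 in WT fluoxetine male replicate 3, against 1113 to 1167 (0.743).

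Differences between groups concerned Chordc1 and Hsph1. With fluoxetine, HT against WT was 0.29 for Chordc1 in females and -0.33 in males. These signed values differed by 0.63 on the log2 scale (limma interaction, adjusted p = 0.0143). The interaction was added after the values were seen. Its call for Chordc1 was lost without HT fluoxetine male replicate 4 (limma, adjusted p = 0.0628) or WT fluoxetine female replicate 3 (adjusted p = 0.0509). Removing the trend with GC content and length also ended it (adjusted p = 0.0701). For Hsph1, HT against WT with fluoxetine was 0.10 in females and -0.29 in males, a difference of 0.38 (limma interaction, adjusted p = 0.101). For Chordc1, lithium against vehicle was -0.14 in HT females (limma, adjusted p = 0.5) and 0.31 in WT females (adjusted p = 0.0797), and neither passed. The difference between them, -0.44, was not tested within females. Over both sexes the genotype by lithium interaction was -0.24 (limma, adjusted p = 0.463).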

How the results depend on the processing

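Of 993 counts of called genes or correlated pairs under other settings, 951 stayed within 1.5 times the value reported and 42 did not. Of 3107 values of single genes, 3066 stayed on the same side of the threshold, most of them never past it, 27 fell out of the calls, 14 came into them, and 0 called values changed sign. Without the 2 WT vehicle libraries that stood apart (female replicate 3 and male replicate 2), the number of the 10 genes called was 2 for fluoxetine against vehicle on average, 3 within HT males, 0 for HT against WT vehicle females, 1 for HT against WT fluoxetine males and 2 for the genotype by sex interaction with fluoxetine. In a fit of only the groups compared it was 2 for lithium on average, 0 for fluoxetine in HT males and 0 for HT against WT vehicle females. Upper quartile factors gave 1 for fluoxetine against lithium and 1 for HT against WT vehicle females, where edgeR also gave 1. DESeq2 gave 1 for lithium in HT females and 2 for the genotype by sex interaction with vehicle. Removing the trend with GC content and length gave 0 for HT against WT vehicle females and 0 for the genotype by sex interaction with fluoxetine, and 0 and 0 with the replicate block as well. In females alone 6 pairs of genes were correlated. Causes were not tested. Shares of all genes called are given for the limma fit of all 59 libraries alone, so counts under other settings were not set against all genes.

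With 1 library left out, counts ran from 1 to 2 for fluoxetine and from 1 to 2 for lithium on average, 2 to 3 for fluoxetine against lithium, 0 to 3 for fluoxetine in HT males, 0 to 1 for lithium in HT females and 0 to 1 in WT females. They ran from 0 to 2 for HT against WT in vehicle females and 0 to 2 in fluoxetine males, and from 0 to 2 and 0 to 1 for the genotype by sex interaction with vehicle and with fluoxetine. Correlated pairs ran from 13 to 18, and the negative ones from 2 to 5. Deviations of libraries with the same replicate number had a mean correlation of -0.0112 (319 pairs of libraries), against 0.0028 for different numbers, so the numbers were not taken to pair the mice. The replicate block alone changed no count: 1 gene was called for fluoxetine, 1 for lithium and 2 for fluoxetine against lithium on average.

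Precision was lowest for Hspa1b, Hspb1 and Hspa1a, the genes with the fewest normalised counts. The cause was not tested.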

Other observations

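Chaperones of the endoplasmic reticulum were also read by genotype. In HT against WT libraries, 16 of the 17 genes of that list had a positive log2 difference (median 0.074, against 0.0025 over all genes), 8 of the 17 were at an unadjusted p under 0.05, and limma, edgeR and DESeq2 called 0. Xbp1 had 0.12 ± 0.033 (limma, adjusted p = 0.119), Pdia4 0.18 ± 0.051 (adjusted p = 0.122) and Hspa5 0.15 ± 0.053 (adjusted p = 0.298). Of the 10 cytosolic heat shock genes 7 were positive in the same comparison, with a median of 0.017. These genes were named after their values were seen, and the list was not tested as a set.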
